A study of Mus musculus with 72 samples.

Results

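Red cell formation and haem synthesis were followed through 31 genes, chosen by symbol and grouped by role: 6 genes of the red cell membrane, 4 of the skeleton beneath it, 8 nuclear factors, 6 enzymes of haem synthesis, 3 carriers of iron or of mitochondrial substrates, and 4 genes of the erythropoietin receptor and late maturation. A gene was measured by a probe set annotated with its symbol alone, and where several existed the brightest one, by its mean over 72 arrays, stood for the gene. This gave values for 30 of the 31 genes, out of 18194 genes represented in the same way. Trim58 was not analysed here.

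The arrays (Affymetrix) had been hybridised with RNA from whole liver and whole brain of male mice of the inbred strains 129S2, DBA/2J and C57BL/6J, at E14.5, an embryonic stage, and at postnatal days 1, 7 and 90 (P1, P7 and P90), with 3 arrays for each of 24 combinations. No animal carried a transgene, a mutation or a treatment that the labels name. Per the labels, 129S2 mice came from another supplier than the other strains, so supplier and strain cannot be told apart for 129S2. The P90 mice had been purchased, at 11 to 14 weeks of age, whereas the younger ones were offspring bred from purchased mice. Nothing in the labels says whether the 3 arrays of a combination came from separate animals, so the spread between them may be technical. The p-values below rest on this spread, pooled for each gene over all stages and strains of a tissue, except where a stage was fitted alone.

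In the mouse, red cells form in the liver before birth, and this task passes to the bone marrow and spleen around and after birth. Erythropoietin and its receptor keep the progenitors alive, and GATA1, TAL1, LMO2, KLF1 and their partners switch on the genes of the red cell. Haem is built in alternate steps inside and outside the mitochondrion, from glycine and succinyl-CoA to the insertion of iron by ferrochelatase. Every cell makes some haem. The hepatocyte makes much of it for cytochromes P450, from a synthase encoded by Alas1, whereas the red cell uses the X-linked synthase encoded by Alas2.

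The values are log2 signals, and each of 8 sets (1 tissue at 1 stage, 9 arrays) had been normalized apart, with array medians between 5.03 and 5.08 in P90 liver and between 6.73 and 6.76 in E14.5 liver. Stages and tissues were therefore compared on a scale common to all 72 arrays, reached by quantile normalization, as sizes with no p-value. A gene was counted as higher or lower when it differed at least 2-fold in the same direction in each of the 3 strains. Strains were compared within a stage on the deposited values with limma, and a gene was called at an adjusted p below 0.05 and at least 1.5-fold. The precision is limited by 3 arrays in a group. Of the markers of cells that the organs could hold, hepatocyte genes averaged 13.83 to 13.94 on the P90 liver arrays and 10.30 to 11.27 on the E14.5 liver arrays (8 genes, common scale). The 7 neuron genes averaged 4.84 to 5.19 on the P90 liver arrays and 12.73 to 12.81 on the P90 brain arrays. Single neuron genes differed in liver. Snap25 averaged 3.38 to 3.45 over the liver stages and 10.64 to 14.08 over the brain stages. Syt1 averaged 7.32 to 8.85 over the liver stages and 10.85 to 13.83 over the brain stages.

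The 30 genes were all lower in P90 liver than in E14.5 liver, with differences between -9.41 and -1.30 log2 units and a median of -3.71, against -0.09 over all 18194 genes. The rule counted 30 of 30 as lower, against 15.5% of all genes. The 9 E14.5 arrays lay above the 9 P90 arrays for each of the 30 genes, which was so for 6386 of the 18194 genes. In whole organs, fewer cells of a type and less RNA per cell cannot be told apart. Over the same interval 8 of 8 cell cycle genes were lower (median -6.00), 8 of 9 neutrophil genes were lower (median -3.88), 6 of 8 megakaryocyte genes were lower (median -1.65) and 5 of 8 hepatocyte genes were higher (median 1.72). The part of these cells in the result was not tested. The groups differed in size: the median difference was -7.13 for the membrane genes, -5.22 for the nuclear factors, -4.05 for the receptor and late maturation genes, -3.43 for the carriers, -2.67 for the skeleton and -2.28 for the haem enzymes. Some P90 liver means were near the P90 brain means, as for Rhag (3.36 and 3.37), Rhd (6.74 and 6.38) and Ermap (5.80 and 5.89). Where such readings are background, the size of a fall also depends on the lowest reading of each probe set.

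**Figure D1:**
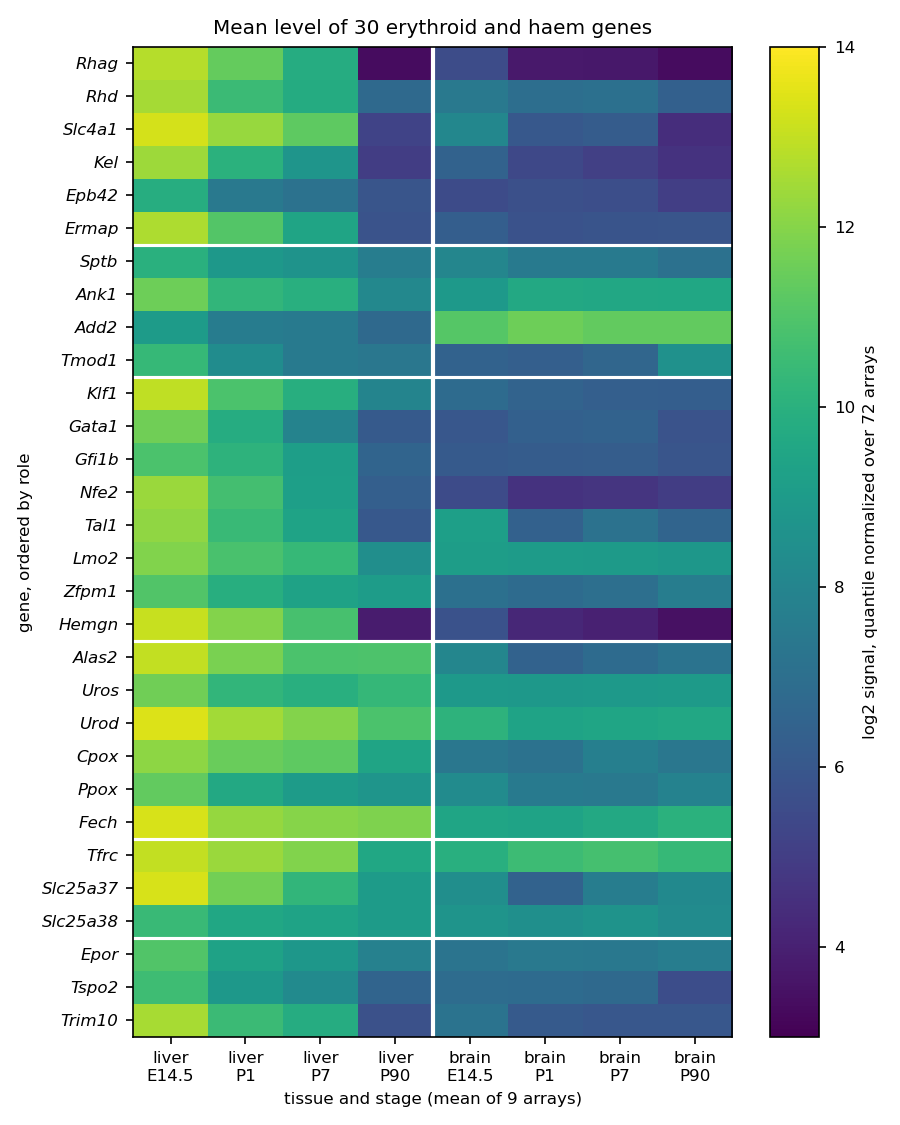
Level of each of the 30 genes (down the page, ordered by role) in each tissue and stage (across), as the mean of 9 arrays in log2 units on the scale common to 72 arrays; white lines part the roles and the tissues. Rhag averaged 3.36 in P90 liver and 12.77 in E14.5 liver, while Alas2, Urod and Fech averaged 10.90 or more at all 4 liver stages, and Add2 was brighter in brain.

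The membrane genes held the widest range. Rhag encodes the Rhesus-associated glycoprotein, an ammonia channel that carries the Rhesus protein Rhd to the surface. On the 9 liver arrays of each stage the lowest, median and highest levels of Rhag were 12.54, 12.83 and 12.93 at E14.5. They were 10.40, 11.52 and 11.83 on P1 arrays, 8.76, 9.73 and 11.08 on P7 arrays, and 3.04, 3.36 and 3.74 on P90 arrays. No P90 array came near any younger one, whereas the P1 and P7 ranges overlapped. The difference of P90 from E14.5 was -9.41 ± 0.09 (SD over 3 strains), a 679-fold lower signal, and no other of the 18194 genes had a larger fall. At P90 the liver mean of Rhag, 3.36, was next to its brain mean, 3.37.

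Slc4a1 encodes the anion exchanger through which red cells trade bicarbonate for chloride. Its lowest, median and highest liver levels in the embryo were 12.97, 13.32 and 13.46, followed by 11.36, 12.49 and 12.84 at P1, then 9.79, 11.36 and 12.21 at P7 and finally 4.85, 5.19 and 5.49 at P90. The difference between the ends of the course was -8.09 ± 0.04, and other probe sets of the gene gave -2.63 and -8.79. Kel, the metalloprotease that carries the Kell blood group, differed by -7.40 ± 0.30, Ermap, the glycoprotein of the Scianna blood group, by -6.86 ± 0.21, and Rhd by -5.77 ± 0.16. In these 4 genes and Rhag the largest of the 3 steps lay between P7 and P90. That step held 74.61% of the fall of Slc4a1 and 68.68% of that of Rhag. It held only 50.56% for Kel, 52.65% for Ermap and 52.71% for Rhd. Epb42, whose product ties the anion exchanger to ankyrin, differed by -3.92 ± 0.29, most of it before P1 (-2.37). A second probe set of Epb42 had liver means of 10.56, 8.51, 7.54 and 3.49 over the course, a fall of 7.07 with its largest step after P7. Both the size and the timing for this gene thus depend on the probe set.

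The promoters of 3 of these membrane genes are shown because each holds CTG at a set distance from a GATA site, a pairing that complexes of TAL1 and GATA1 are known to bind. The windows run from 250 bases before the RefSeq start of the gene to 50 bases after it (RefSeq, GRCm38.p6). Capitals mark matches on either strand to the GATA motif searched, AGATAA, in which the leading A may also be T and the final A may also be G. The window of Rhag is chr17:40810899-40811198 (plus strand), that of Kel chr6:41704276-41704575 (minus strand) and that of Ermap chr4:119189946-119190245 (minus strand).
Rhag: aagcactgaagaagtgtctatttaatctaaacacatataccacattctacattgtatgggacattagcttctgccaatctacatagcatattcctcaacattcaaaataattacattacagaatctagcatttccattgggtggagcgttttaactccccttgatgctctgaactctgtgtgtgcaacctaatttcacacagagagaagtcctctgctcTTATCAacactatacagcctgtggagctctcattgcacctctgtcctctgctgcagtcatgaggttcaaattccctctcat
Kel: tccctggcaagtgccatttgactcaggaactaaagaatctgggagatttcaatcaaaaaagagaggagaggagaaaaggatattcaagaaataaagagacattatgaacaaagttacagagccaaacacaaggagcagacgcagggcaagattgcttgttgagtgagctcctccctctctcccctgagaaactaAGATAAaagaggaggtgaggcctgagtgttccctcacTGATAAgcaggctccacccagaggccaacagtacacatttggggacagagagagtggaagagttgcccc
Ermap: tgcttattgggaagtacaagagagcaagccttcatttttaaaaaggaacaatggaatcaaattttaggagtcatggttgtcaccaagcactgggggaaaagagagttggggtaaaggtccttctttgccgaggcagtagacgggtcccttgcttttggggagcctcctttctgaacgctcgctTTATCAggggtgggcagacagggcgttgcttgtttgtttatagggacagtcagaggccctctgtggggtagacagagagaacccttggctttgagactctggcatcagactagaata
In each, CTG, then 9 bases of any kind, then GATAA (or its variant with a final G) stand in a row on 1 strand, which overlaps the GATA motif. This motif was found in 5 of the 27 windows of the 24 measured genes that the promoter table holds (Epb42, Ermap, Gfi1b, Kel and Rhag), or 18.5%, and in 1.47% of all 32851 windows. The GATA motif was in 16 of the 27 windows (59.3%), against 29.8% of all windows, and CCNCNCCC, the CACCC-type motif of KLF1 searched on both strands, was in 19 (70.4%), against 49.5%. These are counts of letters in short windows, which describe the promoters and show no binding. The table holds no entry for Lmo2, Slc4a1, Fech, Nfe2, Slc25a37 and Ank1.

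The membrane skeleton fell less. Ank1 encodes the ankyrin that ties spectrin to the membrane, Sptb beta-spectrin, Add2 beta-adducin, which caps actin and joins it to spectrin, and Tmod1 tropomodulin, which caps the pointed ends of actin. P90 liver differed from E14.5 liver by -3.42 ± 0.28 for Ank1, -3.00 ± 0.12 for Tmod1, -2.34 ± 0.24 for Sptb and -2.26 ± 0.50 for Add2. Tmod1 had ended its fall by P7: its 9-array liver means over the course were 10.37, 8.37, 7.47 and 7.38. These genes also serve other tissues. Add2 stood at 9.04 in E14.5 liver and at 11.11 in E14.5 brain, and Ank1 stood at 8.14 in P90 liver and at 9.54 in P90 brain. Probe sets of these genes disagreed in size, with P90 minus E14.5 between -0.40 and -3.80 for the 4 of Ank1 and between -0.44 and -4.81 for the 5 of Add2, and a second one of Sptb changed by -0.43.

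Of the 8 nuclear factors, Hemgn, which encodes the nuclear protein hemogen of blood progenitors, came next to Rhag. Its lowest, median and highest liver levels started from 12.77, 13.13 and 13.26 in the embryo, stood at 10.70, 12.17 and 12.73 by P1 and at 9.48, 10.93 and 11.89 by P7, and were 3.51, 3.87 and 4.13 in the adult, a difference of -9.25 ± 0.11. As for Rhag, the adult arrays lay far below all others. Tal1, a basic helix-loop-helix factor, differed by -6.17 ± 0.15, Nfe2, the subunit of a leucine zipper factor active at globin enhancers, by -6.02 ± 0.30, Gata1 by -5.49 ± 0.15 and Klf1, an activator of the adult beta-globin gene, by -4.96 ± 0.25. The repressor Gfi1b differed by -4.34 ± 0.22, the bridging protein Lmo2 by -3.49 ± 0.49 and Zfpm1, the cofactor FOG1 of GATA1, by -1.93 ± 0.04. Gata1 was the single gene whose largest step lay between P1 and P7, and its 3 steps were nearly equal at -1.79, -1.88 and -1.82. The medians of its 9 liver arrays over the course were 11.62, 10.01, 8.07 and 6.11, with no overlap between the arrays of neighbouring stages. Zfpm1 kept a P90 liver mean of 9.10 and stood at 9.33 at P7, but its second probe set had 8.65 at E14.5, 6.58 at P7 and 8.04 at P90, so the late course of Zfpm1 is not the same in both.

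**Figure D2:**
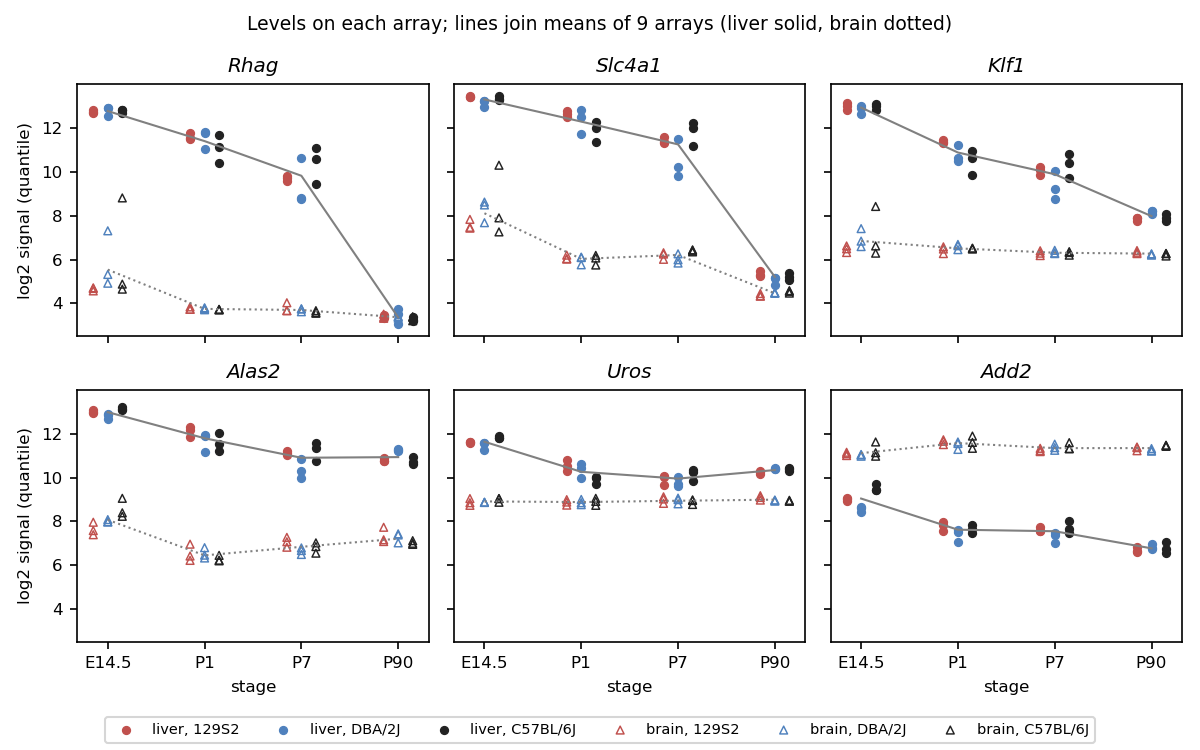
Levels of Rhag, Slc4a1, Klf1, Alas2, Uros and Add2 on each array over the 4 stages (log2 units, scale common to 72 arrays); filled circles are liver arrays and open triangles brain arrays, coloured by strain, and lines join the means of 9 arrays. Rhag and Slc4a1 reach liver means of 3.36 and 5.21 at P90, where their brain means are 3.37 and 4.46. Alas2 has liver means of 10.93 at P90 and 10.90 at P7.

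The haem enzymes had the smallest median fall. Alas2 catalyses the committed step of haem synthesis in red cells. Its lowest, median and highest liver levels in the embryo were 12.68, 12.97 and 13.21, followed by 11.17, 11.89 and 12.28 at P1, then 9.99, 11.03 and 11.57 at P7 and finally 10.61, 10.87 and 11.28 at P90. The P90 and P7 ranges overlapped, and P90 differed from E14.5 by -2.05 ± 0.43. By strain, P90 minus P7 was -0.33 in 129S2, 0.89 in DBA/2J and -0.46 in C57BL/6J. This small step depends on the scale: its mean was 0.03 on the common scale, -0.74 on the deposited values and 0.59 with each array centred on its median. Relative to the median of all genes on the same scale it was 0.12, 0.39 and 0.39, in the same order. The step of Rhag over the same weeks was between -6.73 and -5.40 on these scales.

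Uros makes uroporphyrinogen III, and Fech inserts iron into protoporphyrin. Uros had 9-array liver means of 11.63, 10.26, 9.95 and 10.34 over the course, and P90 minus P7 was 0.33 in 129S2, 0.61 in DBA/2J and 0.22 in C57BL/6J. A second probe set of Uros showed no rise after P7 (6.48 at P90 and 7.68 at P7), and the step was -0.44 on the deposited values. Fech had 13.34, 12.28, 12.02 and 11.88. With the brightest probe sets of these genes, nearly all of the fall was over by P7. Urod, the decarboxylase of the pathway, had 13.40, 12.47, 11.94 and 10.90. Cpox, coproporphyrinogen oxidase, had 12.12, 11.49, 11.25 and 9.41. Ppox, protoporphyrinogen oxidase, had 11.37, 9.65, 9.03 and 8.72. The course after P7 depended on the probe set. A second bright probe set of Cpox had 11.70, 10.60, 9.45 and 10.27 and so was higher at P90 than at P7, where the brightest one was lower. A second one of Urod had 12.46, 10.58, 10.41 and 10.42 and was level after P7. In the other direction, a dimmer probe set of Ppox was at 5.02 at P90 and 6.47 at P7, and one of Fech was at 4.96 at P90 and 6.31 at P7. With every probe set of these 5 genes, P90 was lower than E14.5, by differences of -2.72 to -1.20.

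The promoters of Alas2 and Uros are printed because Uros is known to have a housekeeping start and a red cell start, and Alas2 is the synthase of the red cell. The marks and the source are as above. The window of Alas2 is chrX:150547167-150547466 (plus strand), that of the upstream start of Uros chr7:133709246-133709545 (minus strand) and that of the downstream start chr7:133702451-133702750 (minus strand).
Alas2: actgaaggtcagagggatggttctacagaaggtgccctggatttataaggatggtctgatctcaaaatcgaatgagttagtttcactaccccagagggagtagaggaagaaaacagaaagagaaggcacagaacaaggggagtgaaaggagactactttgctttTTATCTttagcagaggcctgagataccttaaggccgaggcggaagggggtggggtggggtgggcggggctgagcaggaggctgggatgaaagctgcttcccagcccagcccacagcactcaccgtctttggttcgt
Uros, upstream start: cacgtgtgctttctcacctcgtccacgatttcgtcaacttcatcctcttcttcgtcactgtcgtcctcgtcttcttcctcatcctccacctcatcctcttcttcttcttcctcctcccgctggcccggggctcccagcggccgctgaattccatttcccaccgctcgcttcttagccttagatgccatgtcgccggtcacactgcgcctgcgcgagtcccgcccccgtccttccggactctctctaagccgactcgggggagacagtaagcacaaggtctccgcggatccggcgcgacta
Uros, downstream start: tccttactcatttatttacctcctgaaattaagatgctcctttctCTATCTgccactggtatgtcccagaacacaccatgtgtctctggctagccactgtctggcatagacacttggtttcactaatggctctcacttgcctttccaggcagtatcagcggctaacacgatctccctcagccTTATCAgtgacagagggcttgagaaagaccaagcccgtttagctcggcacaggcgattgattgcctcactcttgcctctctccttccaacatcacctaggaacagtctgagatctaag
The Alas2 window holds 1 GATA match and 4 matches to CCNCNCCC. The window at the downstream start of Uros holds 2 GATA matches and no CCNCNCCC, and the window at the upstream start holds 0 GATA matches and 1 CCNCNCCC. The arrays do not tell transcripts of these starts apart.

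Iron reaches the red cell through the transferrin receptor, encoded by Tfrc, and enters the mitochondrion through mitoferrin, encoded by Slc25a37, while Slc25a38 imports glycine. Tfrc had lowest, median and highest liver levels of 9.12, 9.40 and 10.32 at P90 and 12.65, 13.03 and 13.12 at E14.5, a difference of -3.43 ± 0.28. Its largest step came after P7 (-2.39), whereas the other 5 probe sets of Tfrc fell mainly before P1. Slc25a37 differed by -4.29 ± 0.17 and Slc25a38 by -1.41 ± 0.24. Epor, the erythropoietin receptor, differed by -3.18 ± 0.13, Tspo2, a membrane protein of late erythroblasts, by -4.05 ± 0.61, and Trim10, a ubiquitin ligase known from terminal maturation, by -6.83 ± 0.19. Trim10 fell most after P7, as 5 of the membrane genes did (-4.07), while Epor fell most before P1 (-1.70).

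The fall was spread unevenly over the course. Between E14.5 and P1 all 30 genes declined in mean level, with a median of -1.40, and 17 were counted as lower, against 3.81% of all genes. Between P1 and P7 all 30 declined again, with a median of -0.66, and 0 were counted, against 0.423% of all genes. Between P7 and P90 the decline was seen in 28, with a median of -1.80, and 17 were counted as lower, against 10.1%. The interval before P1 or that after P7 held the largest step of 29 genes. It lay after P7 for 16 genes, among them 5 of the 6 membrane genes and 5 of the 8 nuclear factors. It lay before P1 for 13 genes, among them 4 of the 6 haem enzymes and 3 of the 4 skeleton genes. These counts rest on the brightest probe set of each gene. For Cpox, Urod, Tfrc, Ank1 and Slc4a1, counted after P7, at least 1 other probe set of each fell mainly before P7. For Epb42, Add2, Ppox, Fech and Uros, counted before P1, at least 1 other probe set of each fell most after P7. The intervals differ in length, so these are sizes of steps and not rates.

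**Figure D3:**
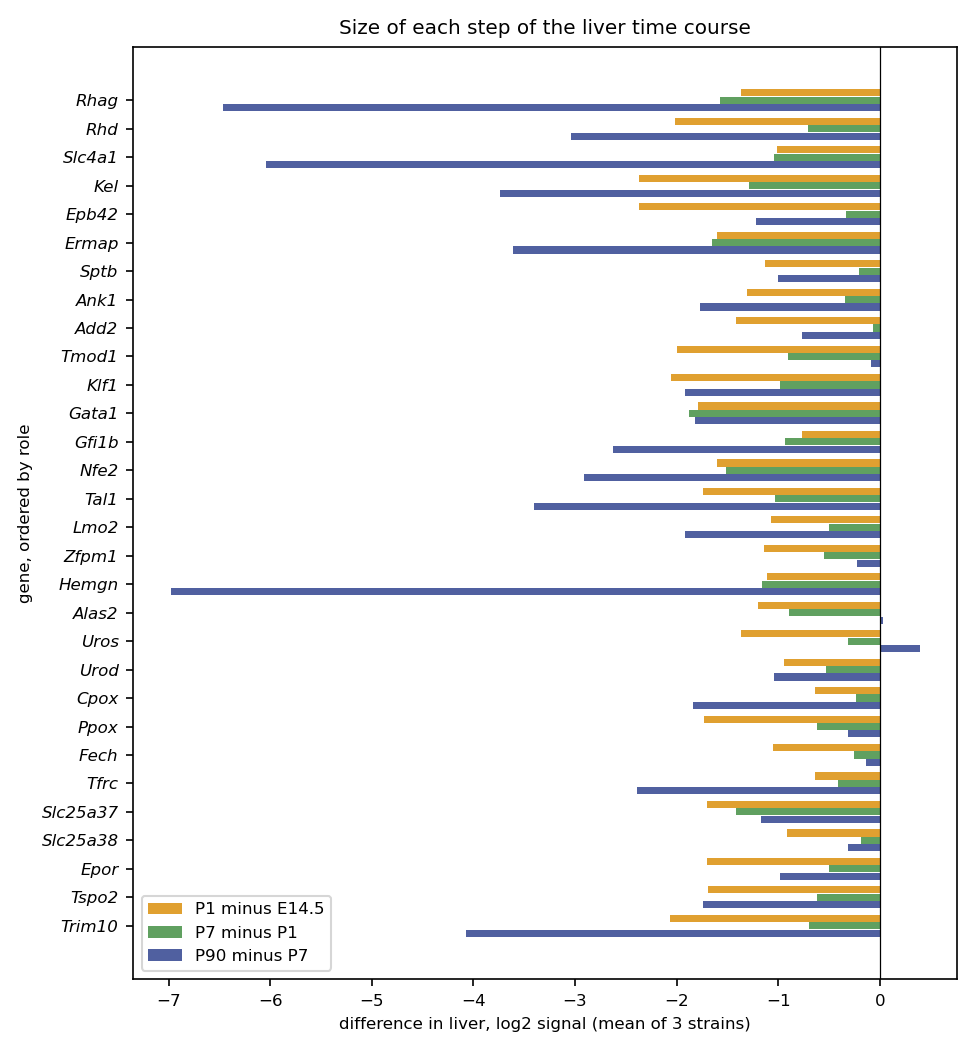
Difference in liver level between neighbouring stages for each gene, as the mean of 3 strains in log2 units on the scale common to 72 arrays (P1 minus E14.5, P7 minus P1 and P90 minus P7). The longest bars are the P90 minus P7 steps of Hemgn (-6.98), Rhag (-6.46) and Slc4a1 (-6.04), and the haem enzymes Alas2 and Uros have bars at or above 0 there.

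Not all other genes of the same pathways fell. Of 17 further genes of haem and iron handling, 7 were lower and 2 higher in P90 liver than in E14.5 liver (median -0.97). Over the same interval 15.5% of all genes were counted as lower, and 2273 of all 18194 genes as higher. Alas1, the synthase used outside red cells, had liver means of 8.62, 10.15, 10.36 and 11.80 over the course (3.18 ± 0.35), opposite in direction to Alas2. Clpx, part of the mitochondrial protease that acts on the synthases, differed by 2.00 ± 0.43. The largest falls were those of Abcb10, a mitochondrial transporter, at -2.61 ± 0.40, of the haem oxygenase gene Hmox1 at -2.47 ± 0.47 and of the haem exporter Flvcr1 at -1.85 ± 0.03. Of 11 further red cell genes 9 were lower (median -2.24), led by the carbonic anhydrase Car2 at -5.55 ± 0.09, the actin bundler Dmtn at -5.44 ± 0.24 and the adhesion protein Icam4 at -5.01 ± 0.29. Of 20 further regulators 12 were lower (median -1.58), led by Myb at -5.71 ± 0.28, Bcl11a at -4.97 ± 0.12 and E2f2 at -4.79 ± 0.33.

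The genes outside all the lists whose levels ran closest to the mean of the membrane genes over the 36 liver arrays were Cldn13, Spag5, Cdc25b, Tmcc2, Lbr, Ncapd2, Gm20161, Cdkn2d, Slc38a5 and Hk1, with Pearson correlations between 0.992 and 0.998. Cldn13, a claudin, had liver means of 5.31 at P90 and 12.22 at E14.5. The 36 points share 4 sets normalized together, so the correlations describe the common course.

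Brain served as the tissue that makes no red cells. At E14.5, 29 of the 30 genes were higher in liver than in brain, against 14.1% of all genes, with a median difference of 4.14. At P1 the count was 25 (16.7% of all genes, median 3.27), at P7 22 (17.9%, median 2.34) and at P90 8 (18.3%, median 0.62). The 8 genes of P90 were Klf1 (1.71), Nfe2 (1.30), Zfpm1 (1.44) and 5 of the 6 haem enzymes: Alas2 (3.73), Cpox (2.04), Fech (1.88), Uros (1.35) and Urod (1.30). Of the 6 membrane genes 0 were higher at P90. Add2 was lower in liver at all 4 stages, against 13.8, 16.0, 16.5 and 18.0% of all genes in stage order, and Ank1 was lower at P90 (-1.39). At E14.5 the Add2 difference was -2.08 with its brightest probe set and 0.63 with the mean of its 5 probe sets.

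Within brain, 6 of the 30 genes were lower at P90 than at E14.5, against 13.5% of all genes: Slc4a1 (-3.65), Tal1 (-2.67), Hemgn (-2.28), Rhag (-2.17), Kel (-1.82) and Tspo2 (-1.30). Tmod1 alone was higher (2.11), against 11.0% of all genes, with brain levels of 8.57, 8.53 and 8.37 in 129S2, 8.24, 8.38 and 8.49 in DBA/2J and 8.83, 8.78 and 8.93 in C57BL/6J at P90, all above its E14.5 range of 6.08 to 6.82. Between E14.5 and P1 4 genes were counted as lower in brain, against 2.67% of all genes: Tal1 (-2.80), Slc4a1 (-2.08), Slc25a37 (-1.97) and Alas2 (-1.62). Some E14.5 brain arrays carried red cell genes far above the others. C57BL/6J replicate 2 had Rhag at 8.81, against 4.65 and 4.88 on the other C57BL/6J arrays, and Hemgn at 9.58, against 5.12 and 5.15, and 29 of the 30 genes lay above the set mean on it. DBA/2J replicate 1 had Rhag at 7.31, against 4.92 and 5.32. Without these arrays the same 6 and the same 4 genes were counted as lower and Tmod1 as higher, and 29 genes remained higher in E14.5 liver than in E14.5 brain. Tal1 did not follow Rhag there, with E14.5 brain levels of 6.84, 8.59 and 9.93 in 129S2, 9.73, 9.39 and 9.82 in DBA/2J and 9.08, 9.34 and 10.26 in C57BL/6J.

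The strains were then compared within each liver stage on the deposited scale, with all 30 genes among the 13145 that passed the filter on low signals. Over 3 pairs of strains at 4 stages, 52 differences were called by limma. They lay mainly at P1 (21) and P7 (25), the stages at which replicate arrays of a strain also differed most. The median SD of the 30 genes between replicates was 0.34 at P1 and 0.38 at P7, against 0.15 at E14.5 and 0.11 at P90. The fit pooled the spread of a gene over the stages. For these genes, SEs and p-values thus tend to be too small at P1 and P7. At E14.5 and P90 they tend to be too large, so differences there may be missed. Contrasts within a stage share arrays, so their calls are not independent. The limma F test of the interaction of strain with stage called 23 of the 30 genes in liver, where it called 31.8% of all genes. In brain it called Alas2 alone, against 4.72% of all genes.

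At E14.5 few of the genes were called between strains. Tspo2 was at 10.30, 10.28 and 10.41 in 129S2, and at 11.54, 11.55 and 11.51 in C57BL/6J. The groups did not overlap, and the difference was -1.20 ± 0.20 (SE, adjusted p = 0.000118). It was the single gene called between these strains, against 2.25% of all genes called lower. In DBA/2J, Tspo2 was at 10.39, 10.58 and 10.72 (-0.97 ± 0.20 against C57BL/6J, adjusted p = 0.00117). Add2 (-0.97 ± 0.15, adjusted p = 2.2e-05) and Cpox (-0.79 ± 0.14, adjusted p = 0.000153) were lower in DBA/2J as well, which made 3 genes against a background of 2.95%. Of the 30 genes 29 had a lower mean in DBA/2J than in C57BL/6J, with a median difference of -0.28. DBA/2J replicate 1 had all 30 genes below the set mean, with a median deviation of -0.42, and without it the same 3 genes were called. Between 129S2 and DBA/2J 0 of the 30 genes passed the rule, against 2.81% of all genes in either direction. By limma 7 had an unadjusted p below 0.05, and 2 had an adjusted p below 0.05 but differed by under 1.5-fold. Markers of other blood cells differed as well. Against C57BL/6J, 9 of 9 neutrophil genes (median -2.18), 5 of 8 megakaryocyte genes (median -0.65) and 2 of 6 B lineage genes were called lower in DBA/2J, and 5 of 9 neutrophil genes (median -0.84) and 4 of 10 macrophage genes (median -0.49) in 129S2. In replicate order, the neutrophil genes had median deviations from the set mean of 0.02, -1.69 and -1.41 on the DBA/2J arrays. They were 0.92, 1.03 and 1.09 on the C57BL/6J arrays. The megakaryocyte genes had -0.81, -0.09 and -0.14 in DBA/2J, against 0.27, 0.18 and 0.39 in C57BL/6J. The DBA/2J replicates thus differed among themselves in these markers. Between 129S2 and DBA/2J, 5 of 9 neutrophil genes were higher in 129S2. Their part in the differences of the 30 genes was not tested.

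At P1, 129S2 livers exceeded C57BL/6J livers in genes of most roles. Of the 30 genes 29 had a higher mean in 129S2, with a median difference of 0.71, and 12 were called higher, against 2.07% of all genes. The largest were Hemgn (1.14 ± 0.35, adjusted p = 0.0347), Kel (1.06 ± 0.30, adjusted p = 0.0227), Klf1 (0.95 ± 0.27, adjusted p = 0.0206) and Ank1 (0.91 ± 0.16, adjusted p = 0.000283). Ank1 was at 10.37, 10.87 and 10.63 in 129S2 and at 9.92, 9.31 and 9.89 in C57BL/6J. Gata1 ran from 9.87 to 10.16 in 129S2 and from 8.85 to 9.38 in C57BL/6J (0.86 ± 0.20, adjusted p = 0.00481). The other 7 were Ermap, Tmod1, Sptb, Tal1, Gfi1b, Fech and Uros, with differences from 0.68 to 0.90.

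These P1 differences rest in part on single arrays. The median deviation of the 30 genes from the set mean was 0.22, 0.50 and 0.43 on the 129S2 arrays, and 0.11, -0.74 and -0.25 on the C57BL/6J arrays. Without C57BL/6J replicate 2 the 12 calls fell to 4, without 129S2 replicate 2 to 5 and without 129S2 replicate 3 to 7, and without C57BL/6J replicate 1 there were 21. When the spread was estimated from the 9 P1 arrays alone, 2 calls were made, for Gata1 (adjusted p = 0.0292) and Ank1 (adjusted p = 0.0319). Beside the 30 genes, 4 of 11 further red cell genes were called higher in 129S2 (Icam4, Dmtn, Car1 and Aqp1), 2 of 8 cell cycle genes were higher, 4 of 10 macrophage genes were lower and 3 of 6 B lineage genes were lower. Their part in the result was not tested.

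**Figure D4:**
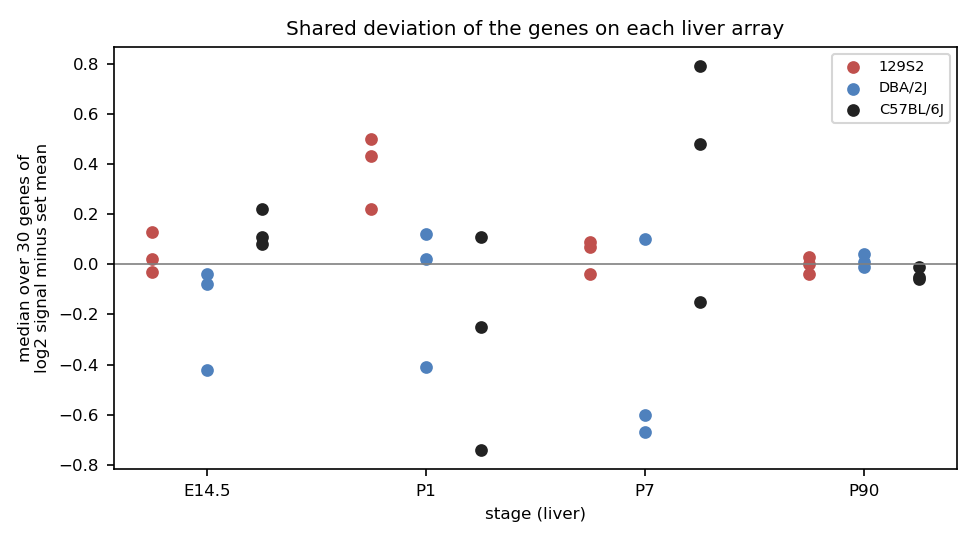
Median deviation of the 30 genes from the mean of their 9-array liver set (log2 units) on each array, by stage and strain; 1 point is 1 array. At P7 the C57BL/6J arrays run from -0.15 to 0.79 and the DBA/2J arrays from -0.67 to 0.10, while all 9 arrays of P90 lie between -0.06 and 0.04.

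At P1, DBA/2J differed from C57BL/6J in both directions. Gata1 (0.68 ± 0.20, adjusted p = 0.0133) and Tal1 (0.89 ± 0.24, adjusted p = 0.0068) were higher, against 3.15% of all genes. Epb42 (-0.93 ± 0.25, adjusted p = 0.00611) and Tspo2 (-0.69 ± 0.20, adjusted p = 0.0122) were lower, against 4.91%. Without C57BL/6J replicate 1 neither Epb42 nor Tspo2 was called, and without C57BL/6J replicate 2 or DBA/2J replicate 1 neither Gata1 nor Tal1 was. Of the 5 genes higher in 129S2 than in DBA/2J (background 4.37%), Epb42 differed most: it was at 8.10, 8.06 and 7.99 in 129S2 and at 6.69, 6.45 and 6.69 in DBA/2J (1.44 ± 0.25, adjusted p = 0.000102). The other 4 were Kel, Tmod1, Cpox and Ank1, with differences from 0.59 to 0.82. The count was 3 without 129S2 replicate 3, 2 without DBA/2J replicate 2 and 10 without DBA/2J replicate 3. In DBA/2J, 3 of 10 macrophage genes, 3 of 8 endothelial genes and 2 of 6 B lineage genes were called lower than in C57BL/6J, and 2 of 6 B lineage genes were lower in 129S2 than in DBA/2J.

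At P7 the largest number of calls lay between DBA/2J and C57BL/6J. All 30 genes had a lower mean in DBA/2J than in C57BL/6J, with a median difference of -0.86, and 17 were called lower, against 2.96% of all genes. They comprised all 8 nuclear factors, 5 of the 6 membrane genes, 2 of the 6 haem enzymes, Slc25a37 and Tspo2, and none of the 4 skeleton genes. Slc4a1 differed most, at -1.45 ± 0.31 (adjusted p = 0.00204), followed by Hemgn (-1.34 ± 0.35, adjusted p = 0.0103) and Nfe2 (-1.26 ± 0.29, adjusted p = 0.00403). Slc4a1 was at 11.42, 9.94 and 9.54 in DBA/2J and at 11.92, 11.09 and 12.23 in C57BL/6J. DBA/2J replicate 1 thus lay above the lowest C57BL/6J array, and such an overlap was present for 15 of the 17 genes. Ppox and Zfpm1 did not overlap. Ppox was at 8.62, 8.14 and 8.07 in DBA/2J and at 9.42, 8.93 and 9.58 in C57BL/6J (-1.04 ± 0.14, adjusted p = 7.45e-06). Zfpm1 was at 8.58, 8.39 and 8.48 in DBA/2J and at 9.01, 9.16 and 9.72 in C57BL/6J (-0.82, adjusted p = 0.0335).

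The arrays of both strains at P7 stood apart from their own replicates. The median deviation of the 30 genes was 0.10, -0.60 and -0.67 on the DBA/2J arrays and 0.48, -0.15 and 0.79 on the C57BL/6J arrays, while the 129S2 arrays lay at 0.07, 0.09 and -0.04. Without DBA/2J replicate 3 the 17 calls fell to 5, without C57BL/6J replicate 3 to 6, without DBA/2J replicate 2 to 9 and without C57BL/6J replicate 1 to 12, and they came to 24 without C57BL/6J replicate 2. With the spread taken from the 9 P7 arrays, 3 were called (Alas2, Ppox and Zfpm1). Of the further red cell genes 7 of 11 were called lower in DBA/2J, among them Car2 (-1.24), Dmtn (-1.08) and Gypc (-1.01), and so were 5 of 9 neutrophil genes. Of the 8 hepatocyte and 10 macrophage genes 0 were called by limma, with 0 and 3 at an unadjusted p below 0.05. An adjusted p below 0.05 was reached by 0 and 1 of them, short of 1.5-fold. The deviation of the hepatocyte genes stayed between -0.03 and 0.12 on the 9 arrays. Whether the other cells have a part in the result was not tested.

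Alas2 was the gene whose P7 calls held under each alternative run. It was at 10.65, 9.99 and 9.77 in DBA/2J and at 11.19, 10.61 and 11.50 in C57BL/6J (-0.96 ± 0.22, adjusted p = 0.00341), with DBA/2J replicate 1 above the lowest C57BL/6J array. In 129S2 it was at 10.90, 11.02 and 11.16, above all DBA/2J arrays. It was 1 of 6 genes called higher in 129S2 than in DBA/2J at P7 (background 3.67%), with Slc4a1 (1.07), Zfpm1 (0.84), Klf1 (0.83), Gata1 (0.69) and Gfi1b (0.62) and a difference of 0.89. For 4 of the 6 genes the arrays of the strains overlapped. That count of 6 ran from 1 without DBA/2J replicate 2 to 15 without DBA/2J replicate 1, and was 2 without 129S2 replicate 2 or DBA/2J replicate 3 and 3 without 129S2 replicate 3. Between 129S2 and C57BL/6J at P7, Ppox (-0.73 ± 0.14, adjusted p = 0.000616) and Tspo2 (-0.78 ± 0.20, adjusted p = 0.00845) were lower, against 2.91%. Without C57BL/6J replicate 2 the count was 10, and without replicate 1 or replicate 3 of C57BL/6J Tspo2 was not called. At this stage 8 of 10 macrophage genes (median -0.74) and 8 of 9 neutrophil genes (median -1.45) were called lower in 129S2 than in C57BL/6J, and 5 of 10 macrophage and 3 of 9 neutrophil genes were lower in 129S2 than in DBA/2J. Their part in the differences of the 30 genes was not tested.

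At P90, when most of these transcripts were at their lowest, 2 of the 30 genes were called between strains. Tfrc was at 7.82, 7.83 and 7.89 in 129S2 and at 9.26, 8.17 and 8.92 in C57BL/6J (-0.94 ± 0.25, adjusted p = 0.00718, against 4.79% of all genes called lower). It was not called without C57BL/6J replicate 1 (-0.70), and the mean of its 6 probe sets differed by -0.16. Lmo2 was at 7.52, 7.41 and 7.44 in DBA/2J and at 6.80, 6.48 and 6.76 in C57BL/6J (0.78 ± 0.20, adjusted p = 0.00916, against 2.05% called higher), and it was not called without C57BL/6J replicate 2 (0.68). Between 129S2 and DBA/2J 0 of the 30 genes passed the rule at P90, against 6.14%. By limma 3 had an unadjusted p below 0.05 and 0 an adjusted p below 0.05. Among the further haem genes, Abcb10 (-0.99 ± 0.16) and Clpx (-1.05 ± 0.13) were called lower in 129S2 than in DBA/2J at P90, and both were also lower in 129S2 than in C57BL/6J (-0.81 and -0.73). Slc48a1, a haem transporter, was higher in 129S2 than in C57BL/6J (0.60 ± 0.10, adjusted p = 2.28e-05). Alad, which makes porphobilinogen, exceeded C57BL/6J levels in both strains, by 1.37 ± 0.08 in 129S2 and 1.51 ± 0.08 in DBA/2J, and it was called higher in both at each of the 4 stages in liver and in brain. Macrophage markers differed at P90 too: 10 of 10 were called lower in 129S2 (median -0.96) and 9 of 10 in DBA/2J (median -0.91) than in C57BL/6J, as were 4 of 9 neutrophil genes in each strain. Their part in the differences of the 30 genes was not tested.

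Tspo2 and Ppox stood apart from the shared shift of the arrays. Tspo2 was called in 5 contrasts, more than any other of the 30 genes, and in each the C57BL/6J livers were higher. Its difference less the median of the 30 genes was -1.11, -1.22, -0.49 and -0.02 for 129S2 minus C57BL/6J in stage order, and -0.69, -0.92, -0.03 and -0.13 for DBA/2J minus C57BL/6J. Ppox had a negative value at all 4 stages in both pairs, from -0.58 to -0.41 for 129S2 minus C57BL/6J and from -0.46 to -0.19 for DBA/2J minus C57BL/6J. At P90 Ppox was at 7.18, 7.20 and 7.19 in 129S2, at 7.29, 7.34 and 7.27 in DBA/2J and at 7.57, 7.51 and 7.65 in C57BL/6J, with no overlap between C57BL/6J and the other strains, though under 1.5-fold. With the mean of its 3 probe sets the P7 differences of Ppox were -0.19 for 129S2 and -0.22 for DBA/2J, and neither was called. Whether a sequence difference under a probe has a part was not tested.

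**Figure D5:**
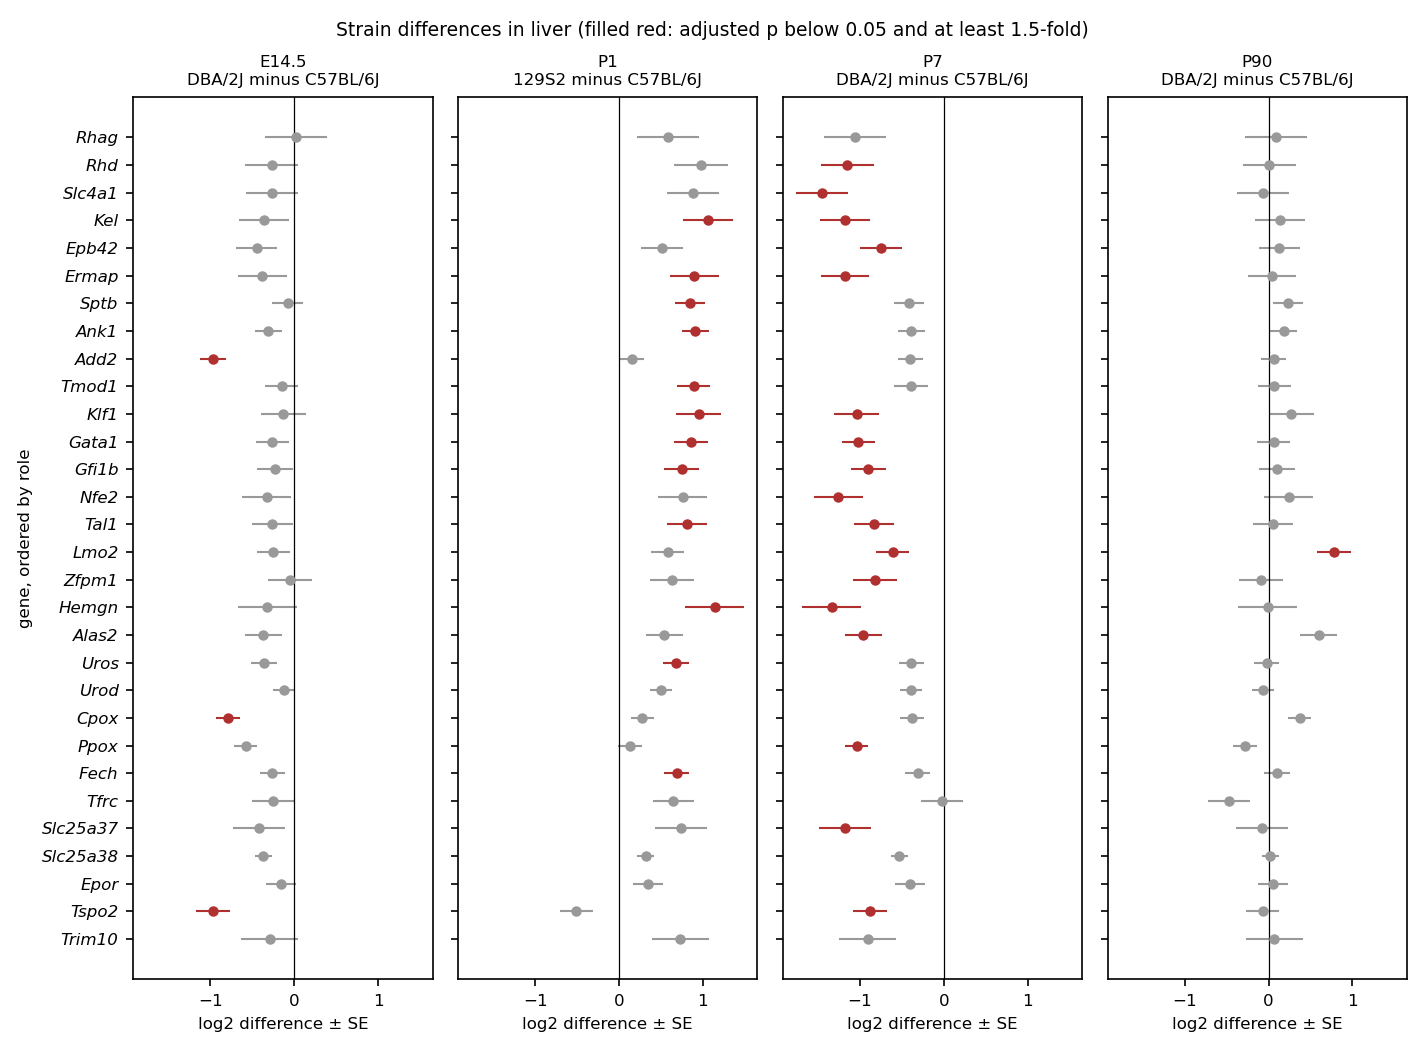
Difference ± SE between strains in liver for each of the 30 genes (log2 units, deposited scale), with 1 contrast shown for each stage, chosen after the results were seen; red points passed the limma rule (adjusted p below 0.05 and at least 1.5-fold) and grey points did not. The 129S2 minus C57BL/6J differences at P1 lie above 0 for 29 genes and the DBA/2J minus C57BL/6J differences at P7 lie below 0 for all 30.

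In brain 28 of the 30 genes passed the filter, and calls were made at E14.5 alone. Of the 28 genes 4 were called lower in 129S2 than in C57BL/6J, against 1.73% of all genes. Ppox was at 8.69, 8.69 and 8.62 in 129S2 and at 9.32, 9.48 and 9.36 in C57BL/6J (-0.72 ± 0.09, adjusted p = 9.09e-07), and the mean of its 3 probe sets differed by -0.18. Slc25a37 was at 8.85, 8.84 and 7.95 in 129S2 and at 9.04, 10.65 and 9.51 in C57BL/6J (-1.19 ± 0.23, adjusted p = 0.00102). The highest of these values, 10.65, is that of the array rich in red cell genes. Alas2 (-0.88 ± 0.20, adjusted p = 0.00407) and Trim10 (-0.88 ± 0.22, adjusted p = 0.00968) were the others, and Slc25a37 was also lower in DBA/2J than in C57BL/6J (-0.78, adjusted p = 0.0196, against 1.97%). Without that array the differences were -0.68 for Ppox, -0.73 for Slc25a37 and -0.65 for Alas2, still called, and -0.39 for Trim10 (adjusted p = 0.0626), no longer called. For DBA/2J, Slc25a37 then differed by -0.32 (adjusted p = 0.216). Other arrays moved the counts upwards. Without C57BL/6J replicate 1, 14 genes were called lower in 129S2 and 6 in DBA/2J, and without C57BL/6J replicate 3 the counts were 11 and 3. With 1 array left out at a time, the count ran between 3 and 14 for 129S2 and between 0 and 6 for DBA/2J. Trim10 was not called without 129S2 replicate 2, and the Slc25a37 call of DBA/2J was lost without DBA/2J replicate 2 or replicate 3. C57BL/6J replicate 3 also stood apart in other genes, with a median deviation from the set mean of -1.14 for the cell cycle genes and 0.64 for the neuron genes. Against C57BL/6J, 5 of 8 cell cycle genes were called higher in 129S2 and 6 of 8 in DBA/2J, and all 7 neuron genes had a lower mean in both strains, 1 of them called, in 129S2. Their part in the differences was not tested. At the 3 later stages, and between 129S2 and DBA/2J at E14.5, 0 of the 28 genes passed the limma rule. In a contrast 0 to 8 of them had an unadjusted p below 0.05, and 0 to 2 an adjusted p below 0.05. Ppox differed between DBA/2J and C57BL/6J by -0.47 at P1 (adjusted p = 0.000651) and -0.52 at P7 (adjusted p = 0.000185), short of 1.5-fold. For 129S2 minus C57BL/6J the share of all genes called in brain at these later stages was 1.24, 1.32 and 1.72%, for DBA/2J minus C57BL/6J it was 1.3, 1.45 and 1.95%, and for 129S2 minus DBA/2J it was 1.36, 1.11 and 1.45%, after 1.54% at E14.5.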

How the data were processed

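The deposited values are log2 signals made with RMA (robust multi-array averaging), per the submitters' processing notes, for 45101 probe sets on 72 arrays, and the version of RMA is not given in the sources used here. Per the labels, total RNA had been extracted from whole organs and labelled with biotin in a single cycle. Between arrays of a set 1.55 to 4.35% of values were equal to the last digit, and between sets 0, so the authors had normalized 8 sets apart. Tests planned between stages or tissues were replaced by sizes. Of the probe sets, 34958 had 1 gene symbol, 932 several and 9211 none. Strain contrasts used R 4.3.3 and limma 3.58.1 (lmFit with group means over the 36 arrays of a tissue, eBayes, two-sided, Benjamini-Hochberg over all genes of a contrast) on genes with a group mean above 6.66, the median over all values. Scripts were tested on simulated data. Named genes were the 30, the list genes with the largest changes, those called between strains, and the 10 most similar genes. The members, lists and thresholds were chosen with earlier results of these data known. Alternatives comprised other filters, scales, probe set rules, variance models and arrays left out. Promoter windows came from RefSeq (GRCm38.p6).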

Additional observations from a re-analysis of the deposited data

Results flagged for a closer look

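The strain differences of most of the 30 genes changed with stage in liver, by limma's F test of the strain by stage interaction. It called 23 of the 30 genes, against 31.8% of all genes, at an adjusted p below 0.05 and a change of at least 1.5-fold. An interaction compares differences across sets that had been normalized apart. For DBA/2J minus C57BL/6J the largest change of a strain difference between stages was 1.94 for Slc4a1, 1.82 for Hemgn, 1.79 for Ermap, 1.72 for Tal1, 1.70 for Gata1, 1.56 for Alas2, 1.52 for Nfe2, 1.39 for Lmo2, 1.31 for Klf1, 1.17 for Gfi1b, 1.16 for Cpox and 1.02 for Add2. For 129S2 minus C57BL/6J it was 1.59 for Tfrc, 1.5 for Rhd, 1.42 for Kel, 1.24 for Tspo2, 1.24 for Tmod1, 1.13 for Ank1, 0.94 for Sptb, 0.90 for Uros, 0.86 for Ppox and 0.76 for Urod. For 129S2 minus DBA/2J it was 1.43 for Epb42. Adjusted p-values ran from 0.00123 for Cpox to 0.0449 for Rhd. Slc25a38 had an adjusted p of 0.00267 but a change of 0.57, under 1.5-fold. Rhag had a change of 1.53 and an adjusted p of 0.213, so the gene with the largest fall over the course had no called change in its strain differences.

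In brain 1 gene was called, against 4.72% of all genes: Alas2, with a change of 1.21 for 129S2 minus C57BL/6J (adjusted p = 0.0372). Its E14.5 brain values were 8.65, 8.09 and 8.24 in 129S2 and 8.88, 9.68 and 9.07 in C57BL/6J on the deposited scale, where the value of 9.68 belongs to the array that also carried Rhag far above its replicates.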

How the results depend on the processing

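The stage course kept 24 to 30 of 30 genes under its alternatives, with the lowest count at a 4-fold minimum, and the E14.5 liver excess over brain kept 27 or more of 29. The Add2 difference at E14.5 turned to 0.63 with the mean of its probe sets. With only the 9 arrays of a stage in the fit, the 52 strain calls in liver became 21, not all of them among the 52. With the mean of probe sets they became 37. In the fit of 9 arrays the variance has fewer degrees of freedom and comes from that stage alone. Every E14.5 and P90 call held there, and the calls lost lay at P1 and P7, where replicate arrays differed most. Leaving out 1 array gave 39 (without DBA/2J P7 replicate 2) to 74 (without C57BL/6J P7 replicate 2) calls, and the 23 interaction calls became 15 (without C57BL/6J P1 replicate 2 or P7 replicate 3) to 28. The 5 brain calls became 15 with no fold minimum, 29 with array weights and 2 with the 9 arrays of a stage, and 4 to 20 with 1 array left out (20 without C57BL/6J E14.5 replicate 1, 15 without replicate 3). Of the 52 liver calls, 6 held under every alternative: Tspo2 at E14.5 in both strains against C57BL/6J, Gata1 at P1 for 129S2 minus C57BL/6J, Epb42 at P1 for 129S2 minus DBA/2J, and Alas2 at P7 against DBA/2J in both other strains. The causes of these changes were not tested beyond what is said here. Arrays of different strains with the same replicate number had a median correlation of deviations of 0.04, against -0.05 for different numbers. Single pairs ran from -0.50 to 0.69, with 29 of 72 above 0.1. For brain and liver of 1 strain and stage the median was 0.13 with the same number and -0.06 with different numbers. The main fit did not pair arrays by number. With the replicate block the counts were 57 in liver, 23 for the interaction and 7 in brain. Stage and tissue sizes carry no p-value, and 12 of the 30 genes had P90 liver means under 6.66, the filter on low signals used for strains.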
